A study of Mus musculus with 24 samples.

Results

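The change in gene expression from day 1 to day 6 after treatment with an agonist of the lymphotoxin-β receptor (LTβR) was compared between 2 nervous tissues of the mouse. These were the dorsal root ganglion (DRG), which holds the cell bodies of sensory neurons, and the lumbar spinal cord, where the central branches of those neurons end. The question was which changes both tissues shared and which they did not. The comparison used 12 of the 24 libraries of the series, 3 in each of 4 groups (DRG day 1, DRG day 6, cord day 1 and cord day 6), chosen by the labels for tissue, agent and day without any measured value. All came from male C57 mice 8 to 12 weeks old, for which the labels name no genetic alteration, and all had received LTβR agonistic antibody in the hind paw at 10 µg per injection. Day-1 tissue had 1 injection behind it and day-6 tissue had 2, so day and number of injections cannot be told apart. The sample titles count the 6 days of the DRG groups from the first injection, whereas the series text counts them after both, so the exact interval is uncertain. DRGs were those of lumbar levels L3 to L5 on the injected side. In addition, 3 DRG libraries taken 1 day after control IgG are given beside the DRG values and did not enter the fit. No cord control libraries were analysed here, so a cord change between days has no untreated level beside it. The labels do not say whether the 3 libraries of a group came from 3 separate mice or from pools, and the p-values rest on a spread between samples that may be technical.

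LTβR is a receptor of the tumour necrosis factor receptor family, found on stromal, endothelial and myeloid cells and activated by lymphotoxin α1β2 and LIGHT. It drives the non-canonical NF-κB pathway, in which the kinase NIK (gene Map3k14) leads to processing of the p100 protein (Nfkb2) and to dimers of its p52 product with RelB, and it also activates the canonical pathway, whose inhibitors Nfkbia, Nfkbie and Tnfaip3 are themselves targets. Classical targets in stroma and vessels are adhesion molecules and chemokines that recruit leukocytes.

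For each gene, the change in a tissue was the log2 ratio of day 6 to day 1, and the difference of changes was the change in DRG minus the change in cord, so a negative difference marks a gene lower on day 6 in DRG relative to cord. Levels are in CPM, the usual count unit scaled to library size, here with library composition corrected as well. A gene passed the test when its Benjamini-Hochberg adjusted p from edgeR's quasi-likelihood test, taken over all 15966 genes tested, was under 0.05. A shared change was tested by taking the larger p of both tissues where the signs matched. Values of ± are standard errors and ranges in brackets are 95% confidence intervals.

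Of the control libraries, DRG IgG replicate 1 had 31.5% of its reads outside annotated features, against 13.3% in the lowest. DRG libraries held 29508103 to 34244912 counts each, and cord libraries 15685843 to 26285770. The tissue labels matched their defining markers. Summed sensory neuron markers lay at 7202 to 8845 CPM in DRG and 612 to 889 in cord, and summed astrocyte markers at 129 to 139 and 5026 to 6165. Other tissues and cells left uneven traces in the libraries. Schwann cell markers summed to 1812, 6051 and 4040 CPM in the cord libraries of day 1 and to 13106, 2077 and 11934 on day 6, against 27772 to 35990 in DRG, so cord replicate 2 of day 6 sat with the day-1 cords and the other 2 far above them. Markers of fibroblasts and meninges followed the same order, with 449.8, 1110 and 626 CPM on day 1 and 1546, 475 and 1405 on day 6. Neutrophil markers summed to 20.6, 25 and 48.7 CPM in cord on day 1 and to 631, 91.6 and 151 on day 6, highest in replicate 1, which also held the most erythroid RNA (683, 133 and 201 CPM on day 6 against 88.2, 152 and 109 on day 1). Skeletal muscle markers reached 7513 CPM in DRG replicate 1 of day 1 and lay between 109.2 and 657 CPM in the other 5 DRG libraries, with 107, 5515 and 6263 CPM after IgG.

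**Figure D1:**
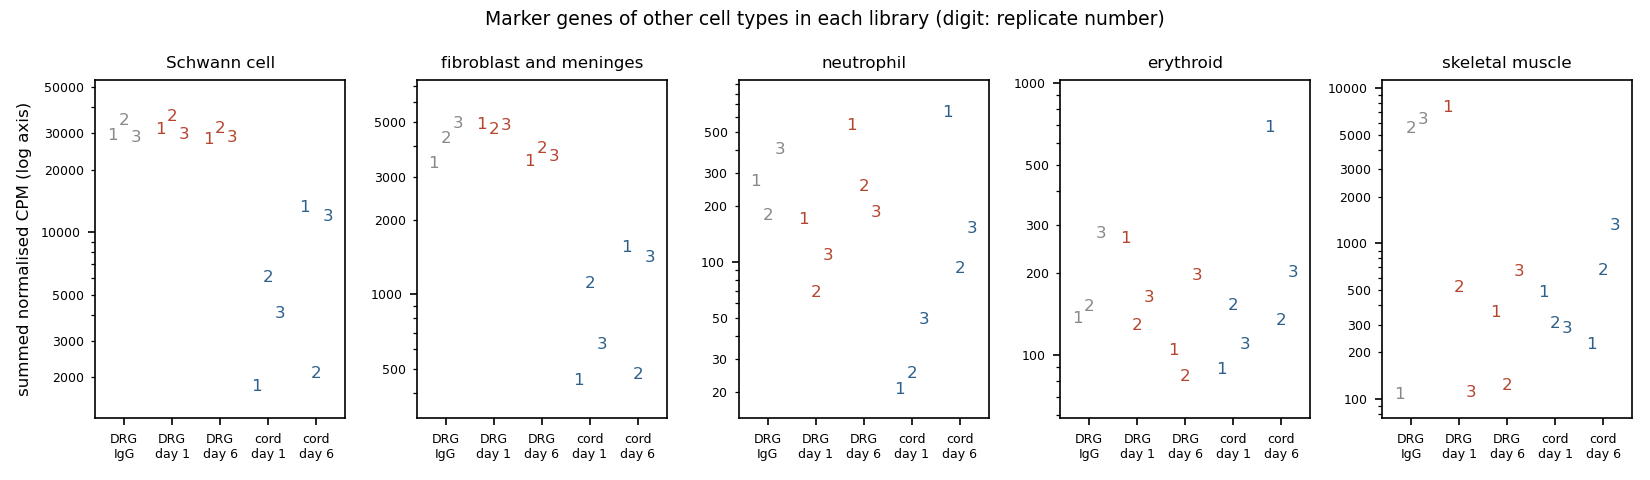
Summed CPM of marker lists of other cell types (log axis) in each library, by group. Among cord libraries, Schwann and meningeal markers are highest in replicates 1 and 3 of day 6, followed by day 1 replicate 2, which for meningeal markers comes close. Neutrophil markers are high in cord day 6 replicate 1, and skeletal muscle markers in DRG day 1 replicate 1 and 2 of the 3 IgG libraries. Digits are replicate numbers.

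Few genes passed in any comparison. The difference of changes was called for 2 genes, Cx3cl1 and Vcam1, which is 0.0125% of the genes tested, and both were lower on day 6 in DRG relative to cord. The DRG change was called for 10 genes (0.0626%), 2 higher and 8 lower on day 6. The cord change was called for 0 genes (0%), with 2118 at an unadjusted p under 0.05 and a smallest adjusted p of 0.110 by edgeR, against 488 higher and 627 lower by limma voom and 142 higher and 63 lower by DESeq2. A shared change was likewise called for 0 genes (0%), with 102 at an unadjusted larger p under 0.05, and also for 0 by limma voom and DESeq2. The mean of both changes was called for 5 genes (0.0313%), all lower on day 6, namely Cx3cl1, Vcam1, Icam1, C1qa and Il2rg. When any 1 library was left out, 0 to 3 genes were called higher and 2 to 19 lower in DRG, and 2 to 22 lower in the mean. A single cord library weighed heavily on these counts. Without cord day 6 replicate 2, the library with few Schwann markers, the difference was called for 63 genes higher and 151 lower, the cord change for 690 higher and 655 lower and the shared change for 0.

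At an unadjusted p under 0.05, the difference was higher in 622 genes (3.9%) and lower in 874 (5.47%). The DRG change was higher in 342 genes (2.14%) and lower in 513 (3.21%), and the cord change was higher in 1054 (6.6%) and lower in 1064 (6.66%). Both tissues reached this level in 142 genes, 16.6% of the DRG genes and 6.70% of the cord genes. The direction matched in 102 of them, with 52 higher in both (0.326% of the genes tested) and 50 lower in both (0.313%), and was opposite in 40. Across all 15966 genes the log2 changes of both tissues had a Pearson correlation of -0.09, given as a description, since genes share the same libraries and are not independent replicates. By sign alone, 22.1% of genes were higher on day 6 in both tissues, 25.3% lower in both, 26.1% lower in DRG and higher in cord, and 25.9% the reverse. The median change was 0.00 in DRG and -0.01 in cord.

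**Figure D2:**
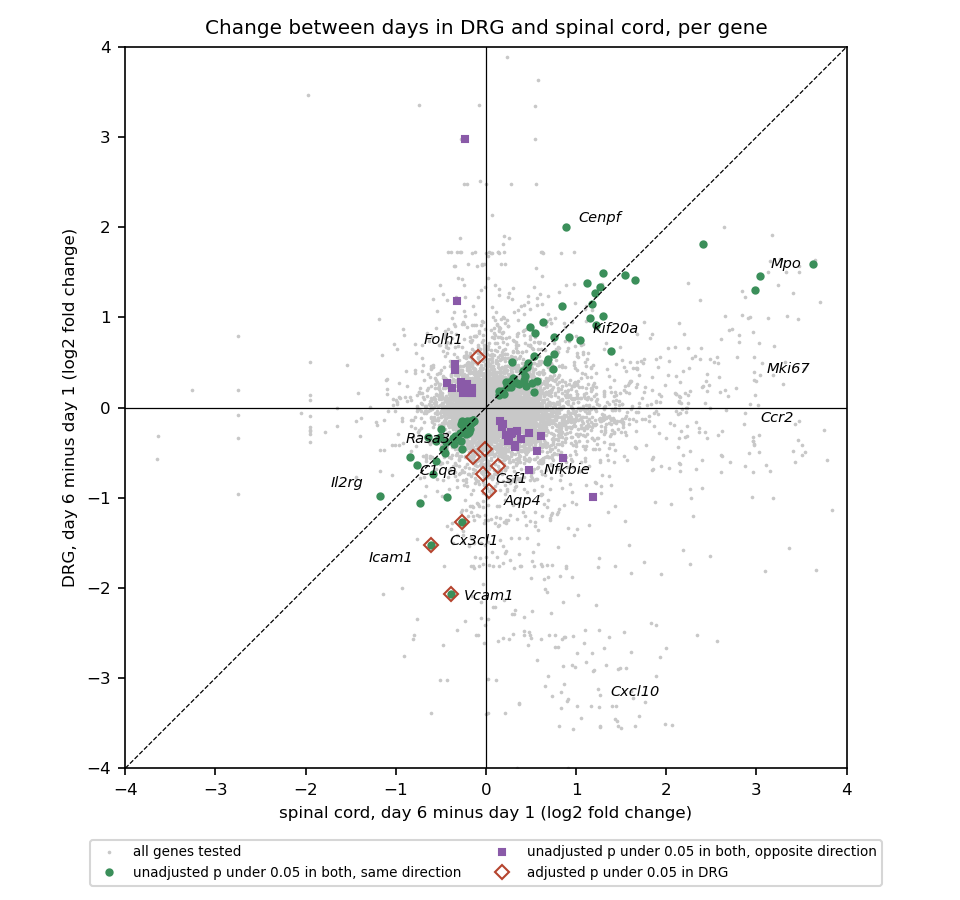
Log2 change from day 1 to day 6 in cord (x axis) and DRG (y axis) for 15946 genes, with another 20, among them Grp, outside the axes. The dashed line marks equal change. The called DRG genes Cx3cl1, Vcam1 and Icam1 lie below 0 on both axes and below the line of equal change, while Csf1, Nfkbie, Rasa3 and Aqp4 lie near 0 on the cord axis.

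Cx3cl1 and Vcam1 carried the difference between the tissues. Cx3cl1 encodes fractalkine, a chemokine made by neurons and endothelium that acts on the receptor Cx3cr1 of microglia and macrophages. Its level in DRG was 34.4, 36.1 and 34.5 CPM on day 1 and 16.3, 14.1 and 13.2 CPM on day 6, against 12.4, 10.5 and 12.8 CPM after IgG. All 3 day-6 DRG libraries lay below all day-1 libraries and just above the IgG range. In cord the level was 417, 407 and 436 CPM on day 1 and 336, 353 and 357 CPM on day 6. These groups did not overlap either, and cord held far more Cx3cl1 RNA than DRG on both days. Cx3cl1 fell 2.41-fold in DRG (log2 change -1.27 ± 0.07, adjusted p = 5.54e-06). Its log2 change in cord was -0.27 ± 0.07 [-0.42 to -0.12] and did not pass (adjusted p = 0.2004). The difference of changes was -1.0 ± 0.10 [-1.22 to -0.78], with an adjusted p of 0.00248.

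Vcam1 encodes the vascular adhesion molecule that binds the integrin α4β1 of leukocytes. Its level in DRG was 57, 69.5 and 49.6 CPM on day 1 and 13.8, 13.4 and 14.8 CPM on day 6, with 9.8, 9.86 and 16.9 CPM after IgG. The day-1 libraries stood apart from all others, and the day-6 libraries were within the IgG range. In cord it lay at 42.2, 47.5 and 38.1 CPM on day 1 and at 32.3, 35.9 and 29.6 CPM on day 6, lower on day 6 without overlap but by far less. Vcam1 fell 4.19-fold in DRG (log2 change -2.07 ± 0.12, adjusted p = 5.54e-06), the largest fall among the 8 genes called lower there. The log2 change in cord was -0.38 ± 0.12 [-0.64 to -0.12] (adjusted p = 0.248), and the difference of changes was -1.68 ± 0.17 [-2.06 to -1.31] (adjusted p = 0.00248). Leaving out any 1 of the 12 libraries kept both genes called, with differences from -1.09 to -0.93 for Cx3cl1 and from -1.79 to -1.54 for Vcam1. Vcam1 was no longer called in the difference with DRG day 1 replicate 1 and cord day 6 replicate 1 both left out (adjusted p = 0.0580) or with all 24 libraries in 1 fit (adjusted p = 0.461). Cx3cl1 was no longer called in the difference with a replicate block by pair of the same day and number (adjusted p = 0.0988). Exons of Vcam1 and Icam1 overlap antisense gene models in the GENCODE annotation of GRCm38, and the strand setting of the counting is not given in the sources used here. In these bulk samples, fewer cells of a type and less RNA per cell cannot be told apart.

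**Figure D3:**
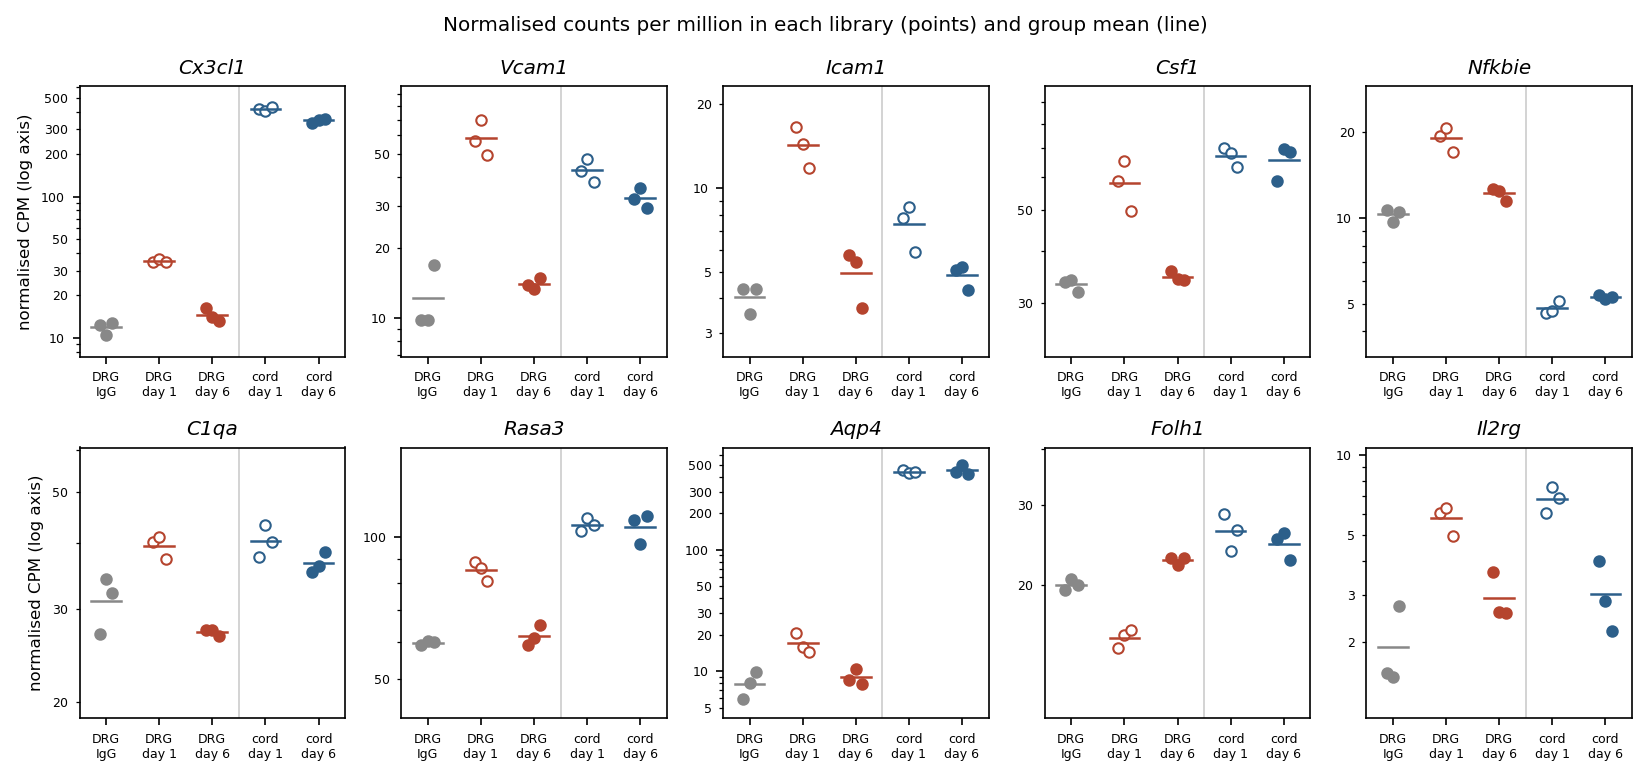
Level in CPM (log axis) of 9 genes called in DRG (all but Grp) and of Il2rg, with 1 point per library and the group mean as a line, for DRG (day 1, day 6 and IgG) and cord (day 1 and day 6). Cx3cl1, Vcam1 and Icam1 are lower on day 6 in both tissues, more so in DRG, and their DRG day-6 points sit near the IgG points.

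The other DRG genes called lower include members of the adhesion, myeloid growth factor, NF-κB feedback and complement groups. Icam1, the endothelial ligand of the β2 integrins, lay in DRG at 16.6, 14.5 and 11.8 CPM on day 1, 5.75, 5.42 and 3.7 on day 6 and 4.33, 3.52 and 4.31 after IgG. In cord it lay at 7.82, 8.57 and 5.88 CPM on day 1 and 5.08, 5.21 and 4.28 on day 6, again without overlap. Icam1 fell 2.88-fold in DRG (log2 change -1.52 ± 0.19, adjusted p = 0.0111). Its log2 change in cord was -0.61 ± 0.20 [-1.03 to -0.18] (adjusted p = 0.255), and its difference of changes, -0.92 ± 0.27 [-1.51 to -0.33], did not pass (adjusted p = 0.499). Of the 10 genes called in DRG, Cx3cl1, Vcam1 and Icam1 were the 3 with an unadjusted p under 0.05 in cord, all in the same direction as in DRG, where 3.21% of all genes were lower in DRG and 6.66% in cord at that level.

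Csf1, the growth factor of macrophages and microglia, stood in DRG at 58.6, 65.4 and 49.7 CPM on day 1, 35.7, 34.3 and 34 on day 6 and 33.7, 34.1 and 32 after IgG. Its cord levels overlapped between days, at 70.3, 68.2 and 63.4 CPM on day 1 and 58.6, 69.6 and 68.7 on day 6. Csf1 fell 1.67-fold in DRG (log2 change -0.74 ± 0.09, adjusted p = 0.0112), with a log2 change in cord of -0.04 ± 0.09 [-0.24 to 0.17]. The difference of changes, -0.70 ± 0.13, did not pass (adjusted p = 0.292). Nfkbie, the NF-κB inhibitor IκBε, stood in DRG at 19.4, 20.8 and 17.1 CPM on day 1, 12.7, 12.4 and 11.5 on day 6 and 10.7, 9.68 and 10.5 after IgG. Cord held less of it and ran the other way, at 4.64, 4.71 and 5.09 CPM on day 1 and 5.34, 5.21 and 5.26 on day 6, with every day-6 value above every day-1 value. Nfkbie fell 1.57-fold in DRG (log2 change -0.65 ± 0.09, adjusted p = 0.0224). Its log2 change in cord was 0.13 ± 0.10 [-0.09 to 0.35], and the difference of -0.78 ± 0.14 did not pass (adjusted p = 0.242).

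C1qa, a chain of the complement starter C1q made by macrophages and microglia, stood in DRG at 40.2, 41.2 and 37.4 CPM on day 1, 27.4, 27.4 and 26.7 on day 6 and 26.9, 34.3 and 32.3 after IgG. In cord it lay at 37.7, 43.4 and 40.3 CPM on day 1 and 35.4, 36.2 and 38.6 on day 6, with overlap. C1qa fell 1.46-fold in DRG (log2 change -0.54 ± 0.07, adjusted p = 0.0111), against -0.14 ± 0.07 [-0.29 to 0.01] in cord. Summed microglial markers in DRG were 266, 262 and 276 CPM on day 1, 258, 254 and 249 on day 6 and 218, 239 and 252 after IgG. Every day-6 sum lay below every day-1 sum. By gene, however, the 11 markers had a median log2 change of 0.003 in DRG, with 6 higher and 5 lower by sign. Summed macrophage markers overlapped in DRG, at 234 to 246 CPM on day 1 and 228 to 269 on day 6. The part of either cell type in the result for C1qa was not tested. In cord the summed microglial markers overlapped, at 401, 422 and 392 CPM on day 1 and 423, 393 and 397 on day 6. Rasa3, a Ras GTPase-activating protein, fell 1.38-fold in DRG, from 88.5, 85.9 and 80.7 CPM to 59.1, 61.1 and 65.1 CPM (log2 change -0.46 ± 0.07, adjusted p = 0.0224). Its cord levels of 103, 109.9 and 106 CPM and 109, 96.5 and 111 CPM overlapped (log2 change -0.02 ± 0.07). Aqp4, the water channel of astrocytes and of some satellite glia, fell 1.90-fold in DRG, from 20.7, 15.9 and 14.3 CPM to 8.53, 10.4 and 7.9 CPM, with 5.86, 8.05 and 9.87 CPM after IgG (log2 change -0.92 ± 0.13, adjusted p = 0.0295). Cord, where astrocytes are abundant, held 455, 429.8 and 436 CPM on day 1 and 439, 496 and 419.6 CPM on day 6, with overlap and a log2 change of 0.04 ± 0.12.

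Both genes that rose in DRG went past the day-1 libraries without a matching change in cord. Folh1, the glutamate carboxypeptidase that cleaves N-acetylaspartylglutamate, stood at 14.6, 15.5 and 15.9 CPM on day 1 and 23, 22.2 and 22.9 CPM on day 6, with 19.5, 20.6 and 20.01 CPM after IgG. The IgG libraries lay between the day-1 and day-6 ranges. Folh1 rose 1.48-fold in DRG (log2 change 0.57 ± 0.08, adjusted p = 0.0224), with -0.09 ± 0.08 in cord, where levels of 28.7, 23.8 and 26.5 CPM and 25.2, 26.1 and 22.8 CPM overlapped. Grp, the gastrin-releasing peptide of itch circuits, had 0 counts in each of the 3 day-1 DRG libraries and 8, 4 and 4 counts on day 6. That is at least 5.16-fold higher, taking 3 counts over the day-1 group as the floor (adjusted p = 0.0224), at the limit of detection, and the IgG libraries were not empty, at 0.0961, 0.0371 and 0.197 CPM. Cord, which has Grp neurons in the dorsal horn, held 6.42, 7.2 and 6.29 CPM on day 1 and 5.96, 5.86 and 6.11 CPM on day 6, lower on day 6 without overlap, with a log2 change of -0.15 ± 0.17.

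Apart from Cx3cl1 and Vcam1, each of these 8 calls was lost without some single library. Icam1 stayed called in 8 of 12 such fits, Csf1 and C1qa in 7, Folh1 in 6, Nfkbie and Rasa3 in 5, Grp in 4 and Aqp4 in 2. Without DRG day 1 replicate 1 or 2, or DRG day 6 replicate 2 or 3, all 8 calls were lost, and without DRG day 6 replicate 1 all but that of Icam1. Cord libraries share the estimate of the spread. Without cord day 1 replicate 3 the calls of Nfkbie, Rasa3, Grp, Aqp4 and Folh1 were lost, without cord day 1 replicate 1 the same apart from Folh1, without cord day 6 replicate 3 those of Aqp4 and Grp, and without cord day 1 replicate 2 or cord day 6 replicate 1 that of Aqp4. The highest adjusted p in these fits was 0.0677 for Icam1, 0.0760 for C1qa, 0.0766 for Csf1, 0.160 for Folh1, 0.185 for Rasa3, 0.188 for Nfkbie, 0.192 for Grp and 0.246 for Aqp4. Their log2 changes kept their sign in every one. With all 24 libraries in 1 fit, 4 of the 10 DRG calls were kept, those of Cx3cl1, Vcam1, Icam1 and Grp, and those of Rasa3 (adjusted p = 0.0872), Csf1 (0.167), Nfkbie (0.175), C1qa (0.671), Folh1 (0.899) and Aqp4 (1) were lost. The replicate block ended the calls of Nfkbie (0.0926), Rasa3 and Folh1 (both 0.0984) and Grp (0.108). Covariates for muscle and meninges ended those of Aqp4 (0.0637) and Grp (0.0753), and fitting each tissue alone that of Aqp4 (0.113). With DRG day 1 replicate 1 and cord day 6 replicate 1 both left out, all 8 calls were lost, at adjusted p from 0.0906 to 0.242.

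The promoters of the falling genes are shown because the pathway under treatment ends in NF-κB binding. RefSeq promoter windows of GRCm38.p6 (the count files use mm9), each the 250 bases before a gene's start, were searched on both strands for the NF-κB consensus motif. It was present in 1281 of 32851 windows (3.9%). Windows were at hand for 6 of the 10 genes called in DRG, and 3 held it, those of Csf1 (154 bases before the start, opposite strand), Nfkbie (106 bases, same strand) and Rasa3 (220 bases, same strand). The windows of Cx3cl1, Icam1 and Folh1 held no match, which says only that these letters are not in this window. Capitals mark the match, and sequences run 5′ to 3′ on the gene's strand.
Cx3cl1, chr8:94771930-94772179, plus strand: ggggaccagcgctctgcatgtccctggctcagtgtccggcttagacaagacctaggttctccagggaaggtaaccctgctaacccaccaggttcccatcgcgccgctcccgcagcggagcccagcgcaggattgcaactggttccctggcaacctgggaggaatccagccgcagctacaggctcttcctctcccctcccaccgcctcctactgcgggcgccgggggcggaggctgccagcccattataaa
Icam1, chr9:21015690-21015939, plus strand: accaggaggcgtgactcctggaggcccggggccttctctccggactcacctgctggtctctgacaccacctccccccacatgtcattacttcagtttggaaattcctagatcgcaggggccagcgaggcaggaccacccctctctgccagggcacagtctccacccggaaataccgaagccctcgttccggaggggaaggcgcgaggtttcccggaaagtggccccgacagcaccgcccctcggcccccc
Csf1, chr3:107760470-107760719, minus strand: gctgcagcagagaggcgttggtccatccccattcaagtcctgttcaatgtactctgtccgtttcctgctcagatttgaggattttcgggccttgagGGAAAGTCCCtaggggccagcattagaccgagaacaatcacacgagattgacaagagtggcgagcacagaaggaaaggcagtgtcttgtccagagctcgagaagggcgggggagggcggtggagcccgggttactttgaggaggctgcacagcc
Nfkbie, chr17:45555450-45555699, plus strand: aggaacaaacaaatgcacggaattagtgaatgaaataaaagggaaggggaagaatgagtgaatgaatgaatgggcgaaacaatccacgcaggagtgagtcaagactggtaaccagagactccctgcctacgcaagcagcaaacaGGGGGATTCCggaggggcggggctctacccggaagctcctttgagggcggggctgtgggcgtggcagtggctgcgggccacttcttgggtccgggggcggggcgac

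Among the genes with the smallest p in the difference that did not pass, some had their larger log2 change in DRG and some in cord. Spag5, a spindle protein, stood in DRG at 2.16, 1.49 and 2.09 CPM on day 1 and 3.15, 2.88 and 2.93 on day 6, with 2.16, 2.52 and 3.62 after IgG. In cord it stood at 35.2, 37.4 and 34.5 CPM on day 1 and 31.5, 31.4 and 33.1 on day 6, so it was higher in DRG and lower in cord without overlap in either (difference 0.81 ± 0.16, adjusted p = 0.298). Ecel1, an endopeptidase raised in injured neurons, showed the same pattern with 0.862, 0.653 and 0.8001 CPM then 1.93, 3.65 and 1.43 CPM in DRG and 40.4, 38.5 and 44.1 CPM then 33.6, 37.9 and 35.8 CPM in cord (difference 1.79 ± 0.37, adjusted p = 0.394). Cckbr, a receptor of cholecystokinin, was at the limit of detection in DRG, with 6, 4 and 4 counts on day 1 and 18, 23 and 8 on day 6. Its cord levels were 17.4, 17.4 and 20.8 CPM and 13.5, 17.8 and 14.5 CPM, and its difference was 2.00 ± 0.43 (adjusted p = 0.394). For Folh1 the difference was 0.66 ± 0.12 (adjusted p = 0.242), and for Grp the adjusted p of the difference was 0.0619.

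Baz1a, a subunit of chromatin remodelling complexes, had its larger change in cord, from 0.491, 0.885 and 0.662 CPM to 2.03, 1.38 and 2.08 CPM (log2 change 1.42 ± 0.23, adjusted p = 0.114). Its DRG levels went from 5.64, 5.75 and 5.5 CPM to 4.76, 4.19 and 4.97 CPM, lower on day 6 without overlap, and the difference was -1.70 ± 0.30 (adjusted p = 0.242). Exons of Baz1a overlap a protein-coding gene model on the same strand in the GENCODE annotation, so its reads are less certain. Kcnn4, a calcium-activated potassium channel, likewise went from 1.02, 1.09 and 0.869 CPM to 2.03, 1.55 and 1.96 CPM in cord (log2 change 0.88 ± 0.14, adjusted p = 0.114). In DRG it overlapped, at 17.6, 18.7 and 18.9 CPM and 17.8, 17.5 and 16.5 CPM, with a difference of -0.97 ± 0.18 (adjusted p = 0.242).

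**Figure D4:**
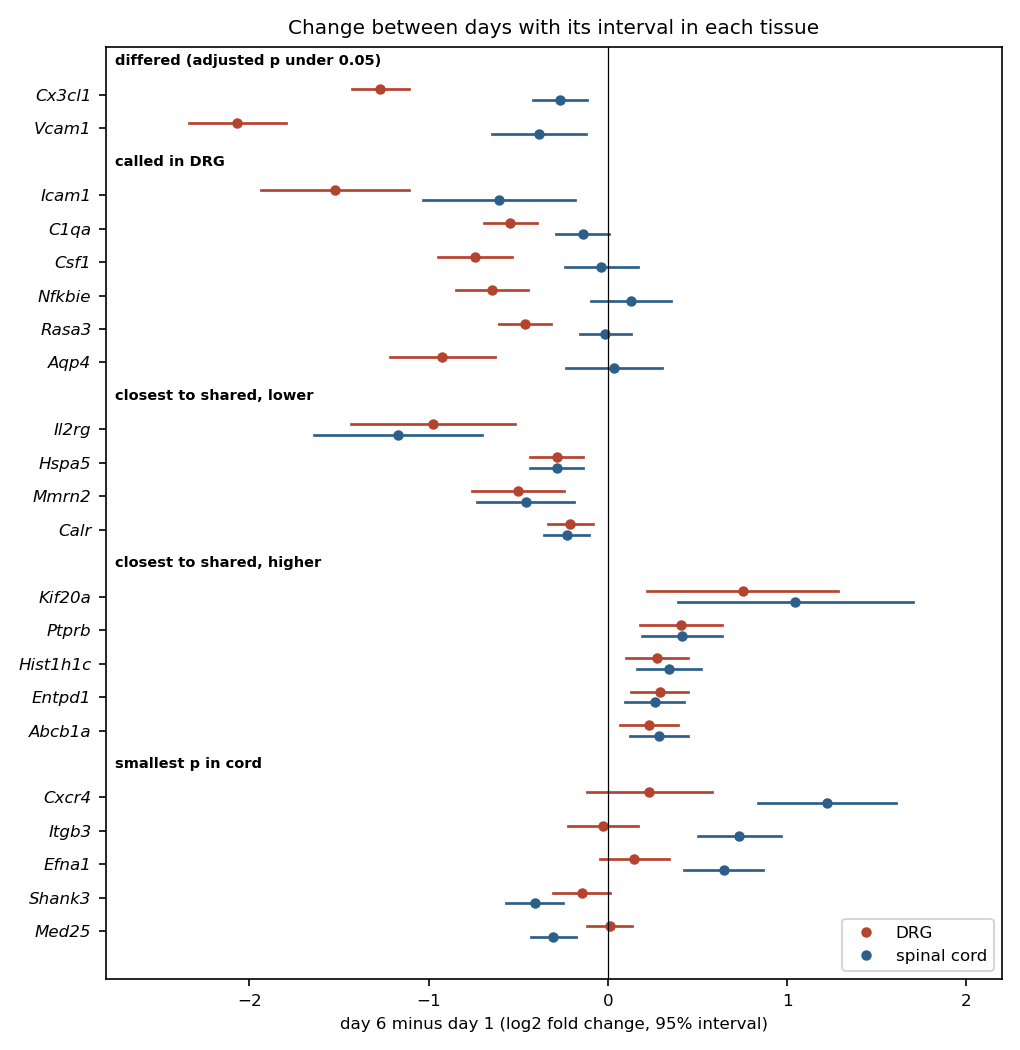
Log2 change from day 1 to day 6 with its 95% confidence interval in DRG and in cord for named genes, grouped by the comparison that named them. Intervals of the genes closest to a shared change cover similar ranges in both tissues, whereas those of Cx3cl1 and Vcam1 lie apart. None of the former passed as shared, and they were chosen for small p-values with matching signs.

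Of the receptor and its NF-κB pathways only Nfkbie passed, while Relb and Nfkb2 had larger log2 changes in DRG than in cord. Ltbr itself lay in DRG at 38, 41.8 and 37 CPM on day 1 and 39.3, 38.6 and 33.9 on day 6, and in cord at 18, 23.3 and 20.2 and 25.2, 21.5 and 26.8 (log2 changes -0.06 ± 0.10 and 0.26 ± 0.11). Relb stood in DRG at 25, 28 and 21.2 CPM on day 1, 15.9, 15.1 and 14.2 on day 6 and 15.5, 13.5 and 11.4 after IgG, with every day-6 value below every day-1 value. Its cord levels of 6.8, 7.77 and 5.96 CPM and 6.97, 6.15 and 6.6 CPM overlapped. The log2 change of Relb was -0.72 ± 0.12 in DRG (adjusted p = 0.0547) and -0.06 ± 0.13 in cord, and the difference was -0.66 ± 0.17 (adjusted p = 0.472). Nfkb2 followed with 60.7, 63.3 and 48.8 CPM on day 1, 17.1, 23.1 and 24.9 on day 6 and 21.9, 21.6 and 16.4 after IgG in DRG. In cord it overlapped, at 9.14, 12.7 and 10.3 CPM and 9.27, 4.27 and 12.7 CPM. Its log2 change was -1.41 ± 0.30 in DRG (adjusted p = 0.363) and -0.32 ± 0.33 in cord, with a difference of -1.09 ± 0.45 [-2.09 to -0.08]. Exons of Nfkb2 overlap those of Psd on the other strand, so its reads are less certain.

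The non-canonical list had 11 of 13 genes tested, and by unadjusted p under 0.05 it held 0 higher and 5 lower in the difference, 0 and 5 in DRG and 1 and 1 in cord. Its median log2 change was -0.24 in DRG, -0.04 in cord and -0.42 in the difference, against 0.00, -0.01 and 0.00 over all genes. At an unadjusted p under 0.05, 3.9% of all genes were higher and 5.47% lower in the difference. In DRG these shares were 2.14% and 3.21%, and in cord 6.6% and 6.66%. Birc3, an inhibitor of apoptosis that limits NIK, had log2 changes of -0.78 ± 0.19 in DRG and -0.12 ± 0.21 in cord. Traf3, the adaptor that targets NIK for destruction, was the 1 member lower in both at an unadjusted p under 0.05 (-0.15 ± 0.06 and -0.17 ± 0.06), and Map3k14 had -0.26 ± 0.17 and 0.19 ± 0.19. The canonical list had 12 genes tested, with 4 lower in DRG and 1 in cord by unadjusted p and medians of -0.16 and 0.02. Its cord median turned negative without cord day 1 replicate 1 or 3 or cord day 6 replicate 1 or 3, at -0.05 to -0.00, and that of the non-canonical list turned positive without cord day 1 replicate 2 (0.05) or day 6 replicate 2 (0.06).

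Tnfaip3, which encodes the ubiquitin-editing inhibitor A20, had a log2 change of -1.06 ± 0.21 in DRG and -0.09 ± 0.23 in cord. Nfkbia, the inhibitor IκBα, had similar log2 changes in both tissues and varied with library, from 71.8, 80.9 and 77.1 CPM to 34.5, 46 and 69 CPM in DRG and from 78.5, 86.6 and 83.4 CPM to 42, 55.2 and 78.6 CPM in cord. In each tissue the day-6 libraries ran from far below the day-1 range up to its lower end. Its log2 changes were -0.62 ± 0.26 and -0.50 ± 0.26, and neither passed. Ptges, the inducible prostaglandin E synthase, stood in DRG at 38.3, 33.5 and 29 CPM on day 1, 19.7, 19.1 and 18.4 on day 6 and 18.4, 17.1 and 16.9 after IgG. In cord it lay at 4.42, 5.79 and 4.68 CPM and 7.77, 4.27 and 5.56 CPM with overlap, and its difference was -1.06 ± 0.25 (adjusted p = 0.449). Arntl, the clock activator BMAL1, had log2 changes of -0.45 ± 0.11 in DRG and 0.13 ± 0.11 in cord (difference -0.57 ± 0.16, adjusted p = 0.482), and its exons overlap an antisense gene model.

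No shared change passed (adjusted p = 1 for each gene named as shared). Among the 5 genes with the smallest p for a lower level in both, Cx3cl1 among them, Il2rg had the largest change in cord. It encodes the common γ chain of the interleukin 2 receptor family on lymphocytes and myeloid cells. In DRG it stood at 6.07, 6.31 and 4.97 CPM on day 1, 3.65, 2.58 and 2.57 on day 6 and 1.54, 1.48 and 2.73 after IgG. In cord it stood at 6.08, 7.6 and 6.91 CPM on day 1 and 4.02, 2.85 and 2.2 on day 6, and in both tissues the days did not overlap. Its log2 change was -0.98 ± 0.21 in DRG (adjusted p = 0.245) and -1.17 ± 0.22 in cord (adjusted p = 0.131), a difference of 0.19 ± 0.30 [-0.46 to 0.85]. The mean change over both tissues, -1.07 ± 0.15, passed (adjusted p = 0.03002). Exons of Il2rg overlap a provisional gene model on the same strand in the GENCODE annotation.

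Hspa5 encodes BiP, the main chaperone of the endoplasmic reticulum. It stood in DRG at 494, 445 and 455 CPM on day 1, 373, 376 and 396 on day 6 and 436, 375 and 377 after IgG, where the IgG libraries lay below the day-1 range and reached above the day-6 range. In cord it stood at 354, 364 and 353 CPM on day 1 and 264, 312 and 303 on day 6. The log2 change was -0.28 ± 0.07 in DRG and -0.28 ± 0.07 in cord, a difference of 0.00 [-0.21 to 0.21]. Calr, the calcium-binding chaperone calreticulin of the same compartment, went from 485, 441 and 459 CPM to 414, 399 and 385 CPM in DRG and from 420.0, 404 and 424 CPM to 344, 374 and 347 CPM in cord, without overlap in either. Its log2 changes were -0.21 ± 0.06 and -0.23 ± 0.06, a difference of 0.02 [-0.16 to 0.20]. After IgG, DRG held 504, 451 and 443 CPM of Calr, within or above the day-1 range. Mmrn2, an endothelial matrix protein, stood in DRG at 38.9, 30.7 and 30.5 CPM on day 1, 23.9, 24.7 and 22.1 on day 6 and 21.7, 22.7 and 20.8 after IgG. In cord it went from 15.9, 17.1 and 15.9 CPM to 12.8, 9.69 and 13.3 CPM, with log2 changes of -0.50 ± 0.12 in DRG and -0.46 ± 0.13 in cord and a difference of -0.04 [-0.42 to 0.33].

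The promoters of Hspa5 and Calr are shown because both genes are textbook members of the unfolded protein response and had nearly the same log2 change in both tissues. The endoplasmic reticulum stress response element, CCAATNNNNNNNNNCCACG on either strand, was found in 37 of the 32851 windows (0.113%). Of the heat shock and unfolded protein response list, 20 of 25 genes had a window, and 3 of their 25 windows (12.0%) held the element, those of Hspa5 (65 bases before the start, same strand), Creld2 (126 bases, opposite strand) and Hsp90b1 (212 bases, same strand, and 107 bases, opposite strand). Calr, outside that list, held it 162 bases before the start on the opposite strand. Capitals mark the element.
Hspa5, chr2:34771840-34772089, plus strand: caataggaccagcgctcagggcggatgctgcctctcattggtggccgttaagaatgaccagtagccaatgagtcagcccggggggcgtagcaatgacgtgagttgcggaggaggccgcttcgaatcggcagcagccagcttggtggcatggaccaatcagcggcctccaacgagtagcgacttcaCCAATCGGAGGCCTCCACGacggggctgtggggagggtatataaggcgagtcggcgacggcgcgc
Calr, chr8:84846932-84847181, minus strand: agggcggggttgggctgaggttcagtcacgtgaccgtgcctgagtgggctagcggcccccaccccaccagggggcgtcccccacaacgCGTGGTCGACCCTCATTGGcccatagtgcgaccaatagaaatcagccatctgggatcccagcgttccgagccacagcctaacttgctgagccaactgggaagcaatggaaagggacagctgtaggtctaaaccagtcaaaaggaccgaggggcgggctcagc

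Most genes of the heat shock and unfolded protein response list had negative log2 changes in both tissues. Of its 25 genes, 21 were lower on day 6 in both tissues by sign, where 25.3% of all genes were. At an unadjusted p under 0.05, 7 were lower and 0 higher in DRG, 8 lower and 0 higher in cord, and 4 were lower in both, Hspa5, Xbp1, Manf and Sdf2l1. Of all genes, 3.21% were lower in DRG, 6.66% in cord and 0.313% in both at that p. The list medians were -0.08 in DRG and -0.15 in cord. They ran from -0.14 (without DRG day 6 replicate 2) to -0.05 (without DRG day 6 replicate 3) and from -0.24 (without cord day 6 replicate 3) to -0.09 (without cord day 6 replicate 1) when 1 library was left out. Xbp1, the transcription factor that drives chaperone synthesis, had log2 changes of -0.29 ± 0.07 in DRG and -0.22 ± 0.08 in cord. Manf, a secreted stress factor whose exons overlap Dcaf1, had -0.31 ± 0.09 and -0.34 ± 0.10. Sdf2l1, a chaperone cofactor, had -0.32 ± 0.14 and -0.64 ± 0.14. Creld2, another stress-induced chaperone, was lower mainly in DRG (-0.47 ± 0.10 against -0.08 ± 0.10).

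Among genes higher on day 6 in both tissues, Ptprb and Abcb1a are endothelial and Entpd1 is vascular and microglial. Ptprb, the vascular endothelial phosphatase VE-PTP, stood in DRG at 23.7, 19.4 and 19 CPM on day 1, 27.6, 29.2 and 25.7 on day 6 and 27.6, 27.4 and 24.1 after IgG. In cord it stood at 42.6, 51.9 and 42.5 CPM and 66.2, 60.05 and 56.3 CPM, and its log2 changes were 0.41 ± 0.11 in DRG and 0.41 ± 0.10 in cord, a difference of -0.01 [-0.33 to 0.32]. Both tissues thus had higher values on day 6 without overlap, and in DRG the day-6 range contained the IgG values apart from the lowest. Abcb1a, the P-glycoprotein drug pump of the blood-brain barrier, went from 34.8, 29.2 and 31.9 CPM to 38.7, 36.1 and 37.6 CPM in DRG and from 34.3, 35.6 and 34.1 CPM to 44.4, 43.1 and 39.1 CPM in cord (0.23 ± 0.07 and 0.28 ± 0.07), and its exons overlap a provisional gene model on the other strand. Entpd1, the ATP-hydrolysing enzyme CD39, went from 17.4, 17 and 16.2 CPM to 20.5, 20.02 and 21.4 CPM in DRG and from 10.7, 11.1 and 10.9 CPM to 13.9, 13 and 12.2 CPM in cord (0.29 ± 0.07 and 0.26 ± 0.08). These 3 genes had higher values on day 6 in every library of both tissues. They were named for small p-values with matching signs in both tissues, so this separation follows largely from that choice. Summed endothelial markers overlapped between days, at 549, 472 and 457 CPM on day 1 and 493, 494 and 446 on day 6 in DRG. In cord they were 761, 832 and 804 CPM and 799.5, 783 and 799 CPM. Of the 14 markers tested, 9 were higher and 5 lower in cord by sign, and 8 higher and 6 lower in DRG. At an unadjusted p under 0.05, 3 were higher and 2 lower in cord, and 1 and 1 in DRG. Of all genes, 6.6% were higher and 6.66% lower in cord, and 2.14% and 3.21% in DRG. The part of endothelial content in the changes of these genes was not tested.

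Hist1h1c, a linker histone, stood in DRG at 66.6, 63.7 and 65.2 CPM on day 1, 80.6, 86.8 and 69.4 on day 6 and 83, 77.3 and 78.1 after IgG, and in cord at 28.2, 27.8 and 29.1 CPM and 36.5, 38.4 and 32.8 CPM. Its log2 changes were 0.28 ± 0.08 and 0.34 ± 0.08, a difference of -0.07 [-0.31 to 0.18]. Kif20a, a mitotic kinesin, went from 1.96, 1.74 and 2.09 CPM to 4.26, 2.65 and 2.83 CPM in DRG and from 0.491, 0.724 and 0.414 CPM to 1.41, 0.977 and 0.978 CPM in cord (0.75 ± 0.25 and 1.05 ± 0.30). It was low in both tissues, and its exons overlap those of Cdc23 on the other strand.

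Most genes of the cell division list had positive log2 changes in both tissues. Of its 30 genes, 23 were higher in both by sign, against 22.1% of all genes. Summed levels overlapped in DRG, at 127, 114 and 106 CPM on day 1 and 138, 115 and 128 on day 6, and the IgG libraries, at 109, 103 and 141 CPM, spanned both days. In cord they were 76.4, 80.5 and 76 CPM on day 1 and 127, 82.6 and 96.6 on day 6, without overlap and highest in replicate 1. At an unadjusted p under 0.05, 9 were higher and 3 lower in DRG, 16 higher and 0 lower in cord, and 6 were higher in both, Cdc20, Cenpf, Cenpe, Kif20a, Tpx2 and Prc1. The median log2 change was 0.43 in DRG and 0.62 in cord, and the cord median came to 0.25 without cord day 6 replicate 1. With a Schwann marker score as a covariate the cord median was 0.41. In that fit 5 genes were higher in cord and 10 in DRG at an unadjusted p under 0.05. In the main fit 2.14% of all genes were higher and 3.21% lower in DRG at that p, and 6.6% and 6.66% in cord. Those higher in both were 0.326%. Cenpf, a kinetochore protein of dividing cells, stood in DRG at 0.63, 0.591 and 0.626 CPM on day 1 and 2.69, 1.98 and 2.8 on day 6, with 0.913, 0.704 and 1.28 after IgG. In cord the values were 0.415, 0.443 and 0.621 CPM and 1.54, 0.448 and 0.733 CPM, with overlap, and the log2 changes were 2.01 ± 0.36 (adjusted p = 0.101) and 0.89 ± 0.40. Mki67, the proliferation marker Ki-67, overlapped between days in DRG, at 7.59, 5.35 and 4.28 CPM and 8.61, 5.49 and 6.96 CPM. In cord it went from 0.642, 0.322 and 0.869 CPM to 9.49, 1.83 and 3.36 CPM, highest in replicate 1 (log2 change 3.00 ± 0.63, difference -2.71 ± 0.81, adjusted p = 0.499).

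Neutrophil markers were a further list higher by sign in both tissues. All 11 markers tested had positive log2 changes in both, with a median of 1.51 in DRG and 3.41 in cord, and 3 and 10 had an unadjusted p under 0.05, Mpo and Elane in both. Of all genes, 22.1% were higher in both by sign, and 2.14% in DRG and 6.6% in cord at that p. Mpo, myeloperoxidase, a granule protein of immature neutrophils, stood in DRG at 2.98, 1.46 and 1.53 CPM on day 1, 9.14, 3.55 and 3.7 on day 6 and 3.75, 2.93 and 18.9 after IgG. In cord it went from 0.415, 0.724 and 0.497 CPM to 9.05, 1.55 and 2.87 CPM, and its log2 changes were 1.46 ± 0.63 and 3.04 ± 0.74. Its exons overlap an antisense gene model. The summed markers in DRG were 169, 68.1 and 108 CPM on day 1, 537, 252 and 183 on day 6 and 269.8, 176 and 399.8 after IgG, so the IgG libraries reached well into the day-6 range. Cord day 6 replicate 1 had 631 CPM of these markers, and the part of blood or marrow cells in the cell division values of that library was not tested.

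Several immune lists instead had opposite signs in the 2 tissues. Of the list of interferon-γ induced GTPases and Irf1, 16 of 17 genes were tested, and all 16 were lower on day 6 in DRG and higher in cord, a pattern found in 26.1% of all genes. At an unadjusted p under 0.05, 12 were lower in the difference and 8 in DRG, against 5.47% and 3.21% of all genes. In cord 0 were higher, against 6.6%. The median log2 change was -0.78 in DRG, 0.56 in cord and -1.29 in the difference. No member passed. Summed levels were 297, 509 and 225 CPM in DRG on day 1, 253, 179 and 177 on day 6 and 377, 184 and 223 after IgG. In cord they were 81, 101 and 86.3 CPM on day 1 and 145, 77.9 and 162 on day 6. These medians depended on single libraries. DRG day 1 replicate 2 was above every other DRG library, and without it the DRG median was -0.37. In cord, day 6 replicate 2, the library with few Schwann markers, lay below the day-1 libraries, and replicates 1 and 3 lay above them. The cord median was 0.36 without cord day 6 replicate 1 and 0.20 with the Schwann score as a covariate. With that covariate, 4 genes were lower in the difference and 10 in DRG at an unadjusted p under 0.05.

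Irf1, a transcription factor of the interferon response, shows the pattern, with 41.5, 54.2 and 28.5 CPM then 32, 24.6 and 23.5 CPM in DRG and 8.16, 11.4 and 8.65 CPM then 13.1, 8.63 and 14.1 CPM in cord (difference -0.97 ± 0.37, adjusted p = 0.515). Gbp6, an interferon-induced GTPase of a family whose near-identical copies can share reads, had 5.93, 9.36 and 3.58 CPM then 4.56, 2.08 and 2.83 CPM in DRG and 0.415, 0.845 and 0.538 CPM then 1.46, 0.651 and 2.08 CPM in cord (difference -2.17 ± 0.69, adjusted p = 0.503). The days overlapped in each tissue for both genes, and exons of both overlap those of other gene models. The type I interferon list had 23 of 24 genes tested, all 23 lower in DRG and 22 higher in cord, with medians of -0.54 and 0.38 and 7 lower in the difference at an unadjusted p under 0.05. Its DRG median was -0.22 without DRG day 1 replicate 2 and -0.88 without DRG day 6 replicate 1, and its cord median 0.09 without cord day 6 replicate 3 and 0.61 without cord day 6 replicate 2. With the Schwann score as a covariate its cord median was 0.16, and 0 genes were lower in the difference at an unadjusted p under 0.05. In DRG, 6 were lower with the covariate and 2 without it. Of all genes, 26.1% were lower in DRG and higher in cord by sign, and 5.47% were lower in the difference at that p. Rsad2, the antiviral protein viperin, stood in DRG at 21.8, 52.2 and 20.8 CPM and 20.1, 11.5 and 14.4 CPM and in cord at 2.45, 3.18 and 3.1 CPM and 8.39, 1.95 and 6.72 CPM. Its highest DRG value was again in day 1 replicate 2, and cord day 6 replicate 2 was the lowest cord library.

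All 16 genes of antigen presentation by MHC class I were lower in DRG on day 6 by sign. At an unadjusted p under 0.05, 9 were lower in DRG, where 3.21% of all genes were. By sign, 11 were higher in cord and 5 lower in both tissues, against 26.1% and 25.3% of all genes. The DRG median was -0.41, or -0.27 without DRG day 1 replicate 2. The cord median was 0.08, or -0.01 without cord day 6 replicate 1, with 0 genes at an unadjusted p under 0.05 in either direction in cord. Tap2, a subunit of the peptide transporter, had log2 changes of -0.62 ± 0.13 and -0.05 ± 0.13, and Erap1, the trimming peptidase, -0.42 ± 0.11 and 0.13 ± 0.11. Exons of both overlap genes on the other strand.

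Of the complement list, C1qa was the 1 gene that passed in DRG, and 0 of 17 passed in cord. By sign, 5 of the 17 were lower in both tissues, near the share of 25.3% over all genes. Another 10 were lower in DRG and higher in cord, against 26.1% of all genes. All 17 had a negative difference, 7 of them at an unadjusted p under 0.05, where 5.47% of all genes were lower. The medians were -0.41 in DRG and 0.32 in cord. The cord median was 0.13 without cord day 6 replicate 1 and 0.53 without cord day 1 replicate 2. With the Schwann covariate it was 0.02, with 3 genes higher and 4 lower in cord at an unadjusted p under 0.05. C1qb and C1qc, the partner chains of C1qa, were lower in both by sign, with log2 changes of -0.50 ± 0.10 and -0.41 ± 0.07 in DRG and -0.15 ± 0.10 and -0.11 ± 0.07 in cord. C3, the central complement protein, had -0.87 ± 0.15 in DRG and 0.10 ± 0.16 in cord.

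Of the chemokine list, 22 of 31 genes were tested, and 21 had a negative difference. Cx3cl1 passed. At an unadjusted p under 0.05, 10 members were lower in the difference and 8 in DRG, against 5.47% and 3.21% of all genes. In cord 5 were higher, against 6.6%. The medians were -0.30 in DRG and 0.38 in cord, the latter 0.20 without cord day 6 replicate 3, 0.63 without cord day 1 replicate 2 and 0.12 with the Schwann covariate. The DRG median was -0.50 without DRG day 1 replicate 3. Ccl2, which attracts monocytes, stood in DRG at 25.1, 21.3 and 8.66 CPM on day 1, 2.8, 4.25 and 2.23 on day 6 and 2.64, 3.74 and 2.96 after IgG. All 3 day-1 libraries were above every other (log2 change -2.57 ± 0.39, adjusted p = 0.0633). Cord held 3, 10 and 4 counts of Ccl2 on day 1 and 3, 2 and 3 on day 6, near the limit of detection. Cxcl10, a T cell attractant, went from 18.3, 64.5 and 18.5 CPM to 6.1, 2.71 and 2.73 CPM in DRG (log2 change -3.13 ± 0.59, adjusted p = 0.245) and had 5, 12 and 9 counts on day 1 and 14, 13 and 24 on day 6 in cord. Its exons overlap those of Art3 on the other strand. Cxcl9, of the same family, was the 1 chemokine with an unadjusted p under 0.05 in opposite directions, but its cord counts of 0, 1 and 0 on day 1 and 26, 1 and 2 on day 6 rested on replicate 1. Ccr2, the receptor of Ccl2 on monocytes, went in cord from 0.415, 0.684 and 0.414 CPM to 7.86, 1.55 and 2.14 CPM, again highest in replicate 1, and had a log2 change of 0.05 ± 0.49 in DRG.

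The adhesion list had 8 of 11 genes tested, and beside Vcam1 and Icam1 its members did not follow one direction. At an unadjusted p under 0.05, 0 were higher and 3 lower in DRG, and 3 higher and 2 lower in cord. Of all genes, 2.14% were higher and 3.21% lower in DRG, and 6.6% and 6.66% in cord. The list median was -0.18 in DRG, or 0.18 without DRG day 1 replicate 1, and 0.37 in cord, or 0.17 without cord day 6 replicate 1. Of the myeloid growth factor list, with 13 genes tested, Csf1 passed in DRG, and 4 were lower in DRG and 1 in cord at an unadjusted p under 0.05. Csf2rb2, a β chain of the interleukin 3 receptor whose reads can be shared with its near copy Csf2rb, had log2 changes of -1.37 ± 0.23 in DRG (adjusted p = 0.0633) and -0.25 ± 0.28 in cord.

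**Figure D5:**
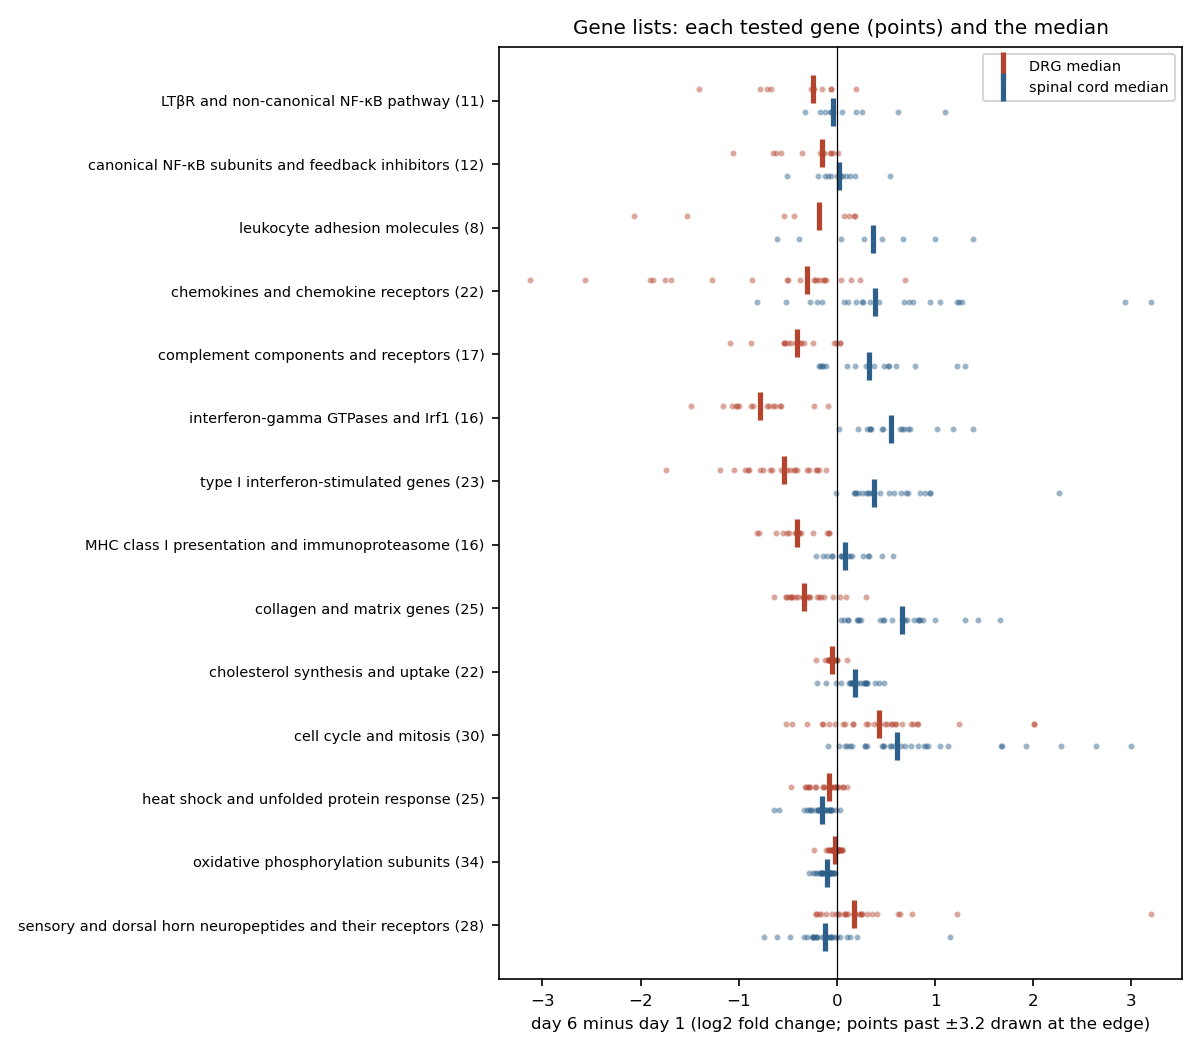
Log2 change from day 1 to day 6 of every gene tested in 14 lists (points) and the list median (bar) in DRG and in cord, with the number of genes tested beside each name. The medians of the non-canonical, heat shock and respiratory chain lists are below 0 in both tissues, and that of the cell division list is above 0 in both. Those of all other lists drawn lie on opposite sides of 0 in the 2 tissues, some close to it, such as the canonical list in cord (0.02).

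Other lists had their larger medians in cord. Of the cholesterol synthesis list, 22 of 23 genes were tested, 12 were higher in cord at an unadjusted p under 0.05 and 0 in DRG, and 10 were lower in the difference. The median was 0.18 in cord, from 0.17 to 0.21 when any 1 library was left out, and -0.05 in DRG. Of all genes, 6.6% were higher in cord and 2.14% in DRG at that p, and 5.47% were lower in the difference. Sc4mol, a sterol oxidase (now Msmo1), stood in cord at 162, 157 and 164 CPM on day 1 and 194, 199 and 188 on day 6, without overlap, and its log2 change was 0.27 ± 0.05 in cord against -0.07 ± 0.05 in DRG (difference -0.34 ± 0.08, adjusted p = 0.394). Sc5d and Mvd, enzymes of the same path, had 0.30 ± 0.07 and 0.30 ± 0.07 in cord and -0.04 ± 0.07 and -0.07 ± 0.07 in DRG. Schwann cells also make cholesterol for myelin, and their markers differed between the cord libraries as given above. With the Schwann score as a covariate, added after the data were seen, the cord median of the cholesterol list was 0.21. The part of Schwann cells in these values was not tested.

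The collagen and matrix list had all 25 genes higher in cord by sign and 22 lower in DRG, with medians of 0.67 and -0.33. Of all genes tested, 26.1% were lower in DRG and higher in cord. The cord median was 0.43 without cord day 6 replicate 1 and 0.10 with the Schwann covariate. Mmp14, a membrane-bound matrix protease, stood in cord at 23.4, 27.3 and 24.1 CPM on day 1 and 38.9, 32.2 and 33.6 on day 6, without overlap (log2 change 0.49 ± 0.09), against -0.13 ± 0.08 in DRG (difference -0.61 ± 0.12, adjusted p = 0.31). Thbs2, a matrix glycoprotein, had log2 changes of -0.45 ± 0.11 in DRG and 0.04 ± 0.11 in cord. All 34 respiratory chain genes were lower in cord by sign, 21 of them also in DRG, where 25.3% of all genes were lower in both. The changes were small, with a median of -0.10 in cord against -0.02 in DRG. The cord median ranged from -0.23 without cord day 6 replicate 2 to -0.04 without cord day 6 replicate 1.

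The cord genes with the smallest p did not pass, and beside Il2rg, described above, they had smaller changes in DRG. Itgb3, the β3 integrin of platelets and vessels, went in cord from 4.42, 3.78 and 3.89 CPM to 6.93, 6.96 and 6.17 CPM (log2 change 0.73 ± 0.11, adjusted p = 0.11). Its DRG levels of 34.3, 35.5 and 32.1 CPM and 29.7, 36.7 and 33.7 CPM overlapped. Cxcr4, the receptor of CXCL12, went in cord from 4.38, 4.55 and 4.68 CPM to 14.4, 7.82 and 9.47 CPM (log2 change 1.22 ± 0.18, adjusted p = 0.11) and in DRG from 15.2, 17.4 and 16.5 CPM to 19.7, 19.2 and 18.9 CPM (0.23 ± 0.16), higher on day 6 without overlap in both. Efna1, an ephrin ligand, went from 5.02, 5.67 and 4.3 CPM to 7.99, 8.3 and 7.15 CPM in cord (log2 change 0.65 ± 0.10, adjusted p = 0.114), against 0.15 ± 0.09 in DRG. On the lower side, Shank3, a scaffold of excitatory synapses, went in cord from 110.3, 115 and 120.0 CPM to 82.1, 80.3 and 98.1 CPM (log2 change -0.41 ± 0.07, adjusted p = 0.131), against -0.15 ± 0.07 in DRG, and its exons overlap a non-coding gene model on the other strand. Med25, a Mediator subunit, went from 71, 68.3 and 73.4 CPM to 56.7, 55.1 and 60.6 CPM (log2 change -0.30 ± 0.06, adjusted p = 0.15), against 0.01 ± 0.06 in DRG.

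Neuronal lists had few genes past an unadjusted p of 0.05. Of 28 neuropeptide genes tested, 21 were higher in DRG and 23 lower in cord by sign, with medians of 0.17 and -0.12. Both held for 18 of them, against 25.9% of all genes. The DRG median was 0.08 without DRG day 1 replicate 2. Nts, neurotensin, had log2 changes of 0.65 ± 0.14 in DRG and -0.00 ± 0.13 in cord, and Gal, galanin, 0.24 ± 0.28 and -0.61 ± 0.34. Pain and sensory channel genes, 21 of them, had medians of 0.04 in DRG and -0.06 in cord. The DRG median was 0.12 without DRG day 1 replicate 3, and the cord median -0.15 without cord day 6 replicate 3 and -0.03 without cord day 6 replicate 2. Summed sensory neuron markers were 7202, 7771 and 8679 CPM in DRG on day 1 and 8845, 8362 and 7939 on day 6. The nerve injury list, with 19 genes, had medians of 0.19 and -0.00, with 4 higher in DRG and 2 in cord at an unadjusted p under 0.05, and the DRG median was 0.11 without DRG day 6 replicate 1. At that level 2.14% of all genes were higher in DRG and 6.6% in cord, and in the difference 3.9% were higher and 5.47% lower. Clock genes, 20 in number, had 5 higher and 2 lower in the difference at that level, with log2 changes of 0.23 ± 0.07 in DRG and -0.14 ± 0.07 in cord for Hlf, a clock output factor, and 0.00 ± 0.09 and -0.41 ± 0.09 for the repressor Cry1. Glucocorticoid targets had medians of 0.07 in DRG and -0.41 in cord, where Fkbp5, a co-chaperone of the receptor, had log2 changes of 0.14 ± 0.21 and -0.54 ± 0.21. The DRG medians of the clock and glucocorticoid lists turned negative without DRG day 6 replicate 3, at -0.00 and -0.20. The cord median of the glucocorticoid list was -0.25 without cord day 6 replicate 1, the library with the most neutrophil and erythroid RNA.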

How the data were processed

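RNA-seq libraries of 12 samples (DRG and lumbar spinal cord, day 1 and day 6, 3 per group) were read as the raw counts per gene that the authors deposited. Per the labels, about 500 ng of total RNA went into a stranded mRNA kit with 50 bp single reads. Per the submitters' processing notes, the tools were bcl2fastq, TopHat2 and HTSeq with build mm9, while versions, annotation and strand setting are not given in the sources used here. The 5 HTSeq summary rows that name no gene were dropped, and 13.1% to 17.3% of uniquely aligned reads lay outside features. No 2 libraries of a group held identical values (24 pairs compared).

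Of 22609 symbols, 15966 passed filterByExpr. TMM factors (0.974 to 1.04) scaled the CPM, and edgeR 4.0.16 (R 4.3.3, limma 3.58.1) fitted a robust quasi-likelihood model with 1 coefficient per group. Contrasts were the difference of changes, the change in each tissue, their mean, and a shared change from the larger of both p-values where signs matched. Benjamini-Hochberg adjustment ran over all genes tested. The scripts were tested on simulated counts.

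Named genes were the 12 with the smallest p past the threshold in each direction of the difference and of the shared change (5 per direction if fewer than 5 passed), 8 in each tissue (or 3), a fixed set of 12 pathway and target genes, and up to 3 members of each list with a gene past the threshold. Provisional gene models and genes with a mean log2 CPM below 0 were not named. The other list members described were chosen after their values were seen. The comparison, the 44 gene lists and the named set were chosen with earlier results of these data known. The alternatives tried were other normalizations, filters, DESeq2 1.42.0, limma voom, all 24 libraries in 1 fit, each tissue alone, replicate blocks, marker covariates and leaving out libraries. Leaving out DRG day 1 replicate 1 and cord day 6 replicate 1 together and the Schwann covariate were added after seeing the data.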

Additional observations from a re-analysis of the deposited data

Results flagged for a closer look

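The DRG and the cord differed in their day 1 to day 6 change for 2 genes by the test of the difference itself, edgeR's quasi-likelihood test with Benjamini-Hochberg adjustment over 15966 genes. For Cx3cl1 the DRG change minus the cord change was -1.0 on the log2 scale (adjusted p = 0.00248), and for Vcam1 it was -1.68 (adjusted p = 0.00248). In both tissues all 3 day-6 libraries were below all 3 day-1 libraries for both genes. The measured changes thus had the same sign and were larger in DRG, but the cord change passed for neither gene.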

How the results depend on the processing

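Leaving out 1 library at a time gave 0 to 63 genes higher and 2 to 151 lower in the difference, 0 to 3 and 2 to 19 in DRG, 0 to 690 and 0 to 655 in cord, and 0 to 69 and 2 to 22 in the mean change. The upper ends for the difference, the cord and the mean came without cord day 6 replicate 2, and 19 lower in DRG without DRG day 1 replicate 3. The shared change gave 0 genes in every setting run. Limma voom gave 5 higher and 22 lower in the difference, 11 and 44 in DRG, 488 and 627 in cord and 49 and 38 in the mean. DESeq2 gave 9 and 35, 14 and 50, 142 and 63, and 88 and 56. All 24 libraries in 1 fit gave 1 lower in the difference and 1 in the mean, and upper-quartile factors gave 3 lower in the mean. Each tissue fitted alone gave 16 lower in DRG. Muscle and meninges covariates gave 15 lower in DRG and 1 higher and 10 lower in the mean. The Schwann covariate gave 20 lower in DRG and 8 higher and 22 lower in the mean. With DRG day 1 replicate 1 and cord day 6 replicate 1 both left out, 1 gene was lower in the difference (Cx3cl1), 0 higher and 2 lower in DRG, 2 higher in cord and 3 lower in the mean. For all these the cause was not tested.

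The labels do not say whether DRG and cord libraries of the same day and number share mice. Their deviations correlated at -0.01 to 0.16, over 0.1 in 3 of 6 pairs, so the pairing is uncertain and the libraries were treated as unpaired. With the replicate number as a block, 0 genes were higher in DRG and 1 higher in the mean. With the replicate block by pair of same day and number, 1 gene was lower in the difference, Vcam1, and Cx3cl1 had an adjusted p of 0.0988.

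Over the named genes, 6169 values under alternatives kept their side of the threshold. Those among them that changed sign differed from the main value by less than its standard error. Another 217 passed only there, 76 no longer passed, and 0 that had passed changed sign. The remaining 9 had not passed, changed sign and differed from the main value by at least its standard error.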
